A study of Mus musculus with 50 samples.

Results

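The glutathione, thioredoxin and antioxidant enzymes of ageing mouse gastrocnemius were followed through 6 ages. Genes were taken by name: the classes of glutathione S-transferase, glutathione peroxidases, peroxiredoxins, thioredoxins and their reductases, superoxide dismutases, glutathione synthesis and recycling enzymes, catalase, Nqo1, the heme oxygenases and sulfiredoxin. Of 23880 genes in the deposited tables, 56 symbols matched, and 47 of them reached 1 TPM (transcript level scaled for transcript length and library size) in 8 or more of the 50 mice and form the group described here. Of these 47 members, 44 reached 1 TPM in every mouse. Gsta3 did so in 41 mice, Mgst2 in 16 and Gstm6 in 12. The other 9 matches, Gsta1, Gsta2, Gpx2, Gpx5, Gpx6, Gstm3, Gsto2, Gstp3 and Gstt4, did not reach that level in any mouse.

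The mice were wild type C57BL/6JRj males, caged singly and fed AIN93M, with 8 animals at each of 8, 18, 22 and 24 months and 9 at each of 26 and 28 months. Mice of 22 to 28 months had been on this diet since 18 to 19 months of age, whereas mice of 8 and 18 months had it for at least 2 months before sampling, so for comparisons of these ages with 8 months age and diet history cannot be told apart, and the comparison of 28 with 22 months lies within a single regime. Overtly ill mice and mice with tumours had been left out. Each mouse gave 1 polyA RNA-seq library, with 13607229 to 21267375 counts per library (median 16521368). Fast IIB fibre markers, among them Myh4 and Actn3, were high in every library, with a summed level of 101055 to 158962 TPM at 28 months.

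As background, hydrogen peroxide and lipid peroxides are reduced by glutathione peroxidases, which spend glutathione, and by peroxiredoxins, which are regenerated by thioredoxin. Glutathione reductase and thioredoxin reductase restore both carriers with NADPH, and the glutathione S-transferases join glutathione to reactive electrophiles. Many of these genes are known targets of the transcription factor NRF2 (Nfe2l2), which is held back by KEAP1 and acts with small MAF proteins at antioxidant response elements. In skeletal muscle these enzymes meet the peroxide and superoxide made by mitochondria and NADPH oxidases during contraction.

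At 8 months the 47 members summed to 5348 ± 412 TPM (SD, n = 8), and at 28 months to 5518 ± 755 TPM (SD, n = 9). Peroxiredoxins with sulfiredoxin (7 members) held 1237 TPM of the 8-month sum and the 5 glutathione peroxidases 1202 TPM, ahead of the 4 superoxide dismutase and catalase genes with 606 TPM. Gpx4, which reduces lipid hydroperoxides in membranes, had the highest level of any member, 780 ± 128 TPM at 8 months. The next were the cytosolic peroxiredoxin Prdx1 (392 ± 47.5 TPM) and the copper-zinc superoxide dismutase Sod1 (365 ± 51.0 TPM), whose SDs overlapped. Genes that make and recycle glutathione were low by comparison, with 77.0 TPM for 4 members.

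**Figure D1:**
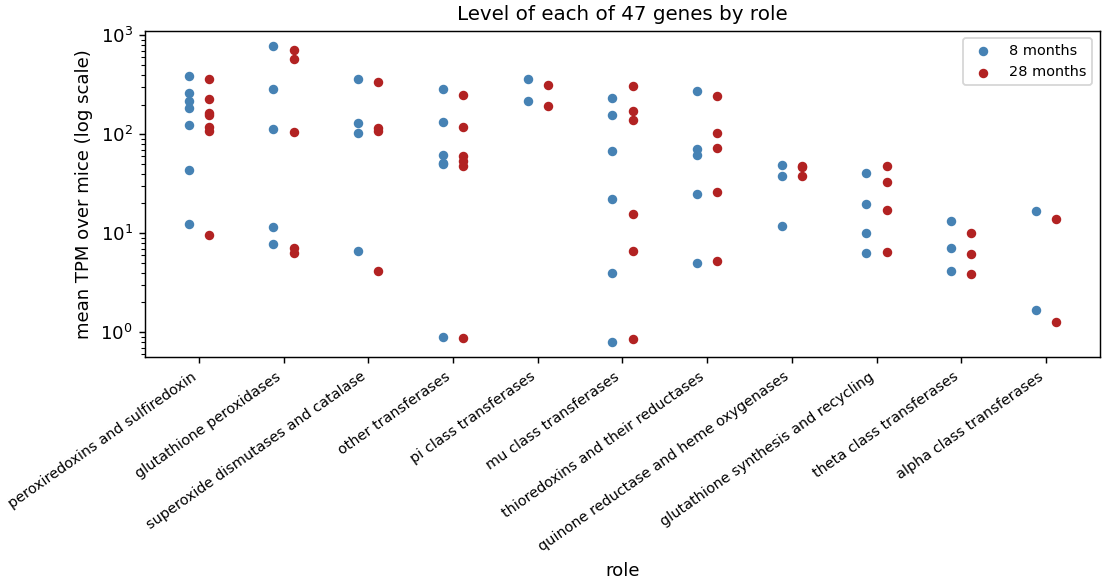
Mean TPM over mice (log scale) of each of the 47 genes, grouped by role, at 8 months (blue, 8 mice) and 28 months (red, 9 mice). The levels span from under 1 TPM to 780 TPM, and most genes sit at a similar height at both ages.

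Differential expression was tested on counts with edgeR's quasi-likelihood test in 1 fit over all 50 mice, and p-values were adjusted by the Benjamini-Hochberg method over the 12586 genes tested. A gene was called at an adjusted p under 0.01. Values given as CPM are counts scaled to library size with TMM factors and are compared only between mice for the same gene. Of the members 45 were tested, as Gstm6 and Mgst2 did not reach 1 CPM in 8 mice.

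Calls among the members came late. No member was called at 18 or 22 months against 8 months, where 0.0715% and 0.0397% of all genes were called. At an unadjusted p under 0.05 there were 1 and 3 members, and DESeq2 also called 0. At 24 months only Gstm2 was called (0.612% of all genes), and that call was lost without mouse 1 or mouse 8 of 24 months. At 26 months 8 of 45 members passed (18.4% of all genes), 4 higher (9.84%) and 4 lower (8.54%). That count was 4 without mouse 1 of 26 months, and 5 without mouse 8 of 26 months, mouse 5 of 8 months or mouse 7 of 8 months. The share of all genes called in these refits is not given here. At 28 months 16 of 45 members, or 35.6%, passed against 39.6% of all genes. Of these 9 were higher (21% of all genes) and 7 lower (18.7%), so with TMM factors the share of members called was near that of all genes at both late ages. The shares of 21% and 18.7% also stand beside the counts of roles, related lists and markers given below for 28 against 8 months. Upper-quartile factors in place of TMM gave 8 members higher and 13 lower, and called 5009 of the 12586 genes, 44.9% of them higher. The median log2 fold change at 28 months was -0.20 over the members and 0.01 over all genes.

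Against 22 months, within a single diet regime, 14 members were called at 28 months (27.7% of all genes), 8 higher (16.2%) and 6 lower (11.5%). This count fell to 8 without mouse 1 of 28 months, to 9 without mouse 2 of that age, and to 4 without both. For these refits the share of all genes called is not given here. Between 24 and 26 months, and between 26 and 28 months, no gene of the transcriptome was called (0% in each), with 6 and 4 members at an unadjusted p under 0.05 and 0 called by DESeq2. The test of any difference among the ages called 17 members and 35.4% of all genes. The ranges of the 8- and 28-month mice did not overlap for 2 members, Gstm2 and Sod3, and for 4.7% of all genes.

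**Figure D2:**
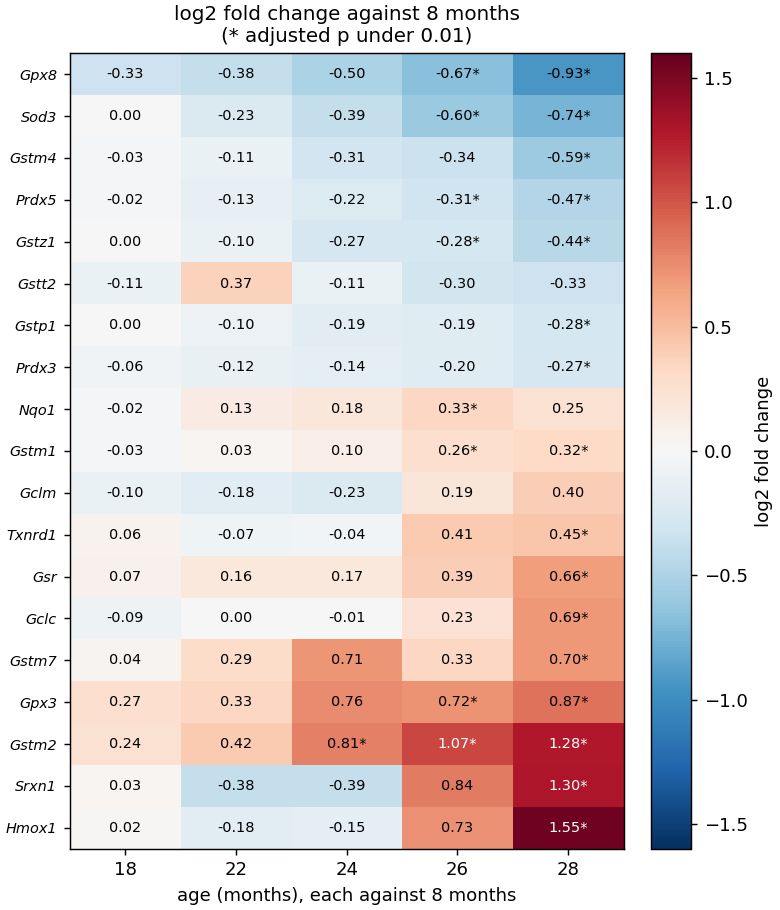
Fitted log2 fold change against 8 months (colour and number) at each later age for the 19 members called in any comparison, ordered by the value at 28 months. An asterisk marks an adjusted p under 0.01, and all asterisks but that of Gstm2 at 24 months stand at 26 and 28 months.

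Among the mu class glutathione S-transferases, cytosolic enzymes that conjugate electrophiles, 3 of 5 tested members were higher at 28 months, 1 was lower and 1 did not pass, with a median log2 fold change of 0.32. The genes lie in a cluster on chromosome 3 (GRCm38, GENCODE vM21), in the order Gstm5, Gstm7, Gstm6, Gstm2, Gstm1 and Gstm4. Gstm2 (107981702 to 107986453, minus strand) had 30.8, 37.3 and 53.5 CPM as the lowest, median and highest value at 8 months. At 28 months these values were 63.2, 98.4 and 131 CPM, so that every 28-month mouse lay above every 8-month mouse. Its log2 fold change was 1.28 (SE 0.16, adjusted p = 4.43e-08), a 2.43-fold difference. The fitted difference from 8 months was 0.24 at 18 months, 0.42 at 22 months, 0.81 at 24 months and 1.07 at 26 months.

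Gstm1 (108012255 to 108017973, minus strand), the member of this class with the highest level in TPM at 8 months (234 ± 16.4 TPM), had a median of 136 CPM at 8 months (117 to 151) and 167 CPM at 28 months (137 to 204). The log2 fold change was 0.32 (SE 0.08, adjusted p = 0.000714), and 7 of 9 mice of 28 months lay above the 8-month range. Gstm7 was low, with 1.35 to 3.20 CPM at 8 months and 2.82 to 5.08 CPM at 28 months (log2 fold change 0.70, SE 0.20, adjusted p = 0.00277). The neighbouring Gstm4 (108040408 to 108044894, minus strand) went the other way, from a median of 18.6 CPM (11.7 to 21.5) to 12.03 CPM (7.73 to 15.7). Its log2 fold change was -0.59 (SE 0.11, adjusted p = 1.68e-05), with 4 of 9 mice of 28 months below the 8-month range. Of the 31-base words in the transcripts of Gstm1, 16.9% also occur in another gene, mostly Gstm3, and 10.7% of those of Gstm2, so reads of these near copies may be split. For Gstm4 and Gstm7 the shares were 2.97% and 2.38%.

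The other transferase classes held no member that was higher at 28 months. Gstz1, maleylacetoacetate isomerase of tyrosine breakdown, fell from a median of 47.1 CPM (41.4 to 53.0) to 35.8 CPM (28.7 to 42.7), a log2 fold change of -0.44 (SE 0.08, adjusted p = 2.04e-05). In 7 of 9 mice of 28 months it lay below the 8-month range. The pi class gene Gstp1 fell from a median of 154 CPM (122 to 196) to 130 CPM (110 to 152), with a log2 fold change of -0.28 (SE 0.09, adjusted p = 0.00585). This call was lost without mouse 1, 3 or 7 of 8 months or mouse 5, 8 or 9 of 28 months (log2 fold change -0.23 to -0.27 in these refits), and 57.8% of its 31-base words are shared with Gstp2, so the pair is uncertain. Gstp2 itself was at -0.26 (SE 0.09, adjusted p = 0.0161).

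Gstt2, a theta class gene, was called only between 28 and 22 months (log2 fold change -0.70, SE 0.22, adjusted p = 0.00873). Its median was 3.62 CPM at 8 months, 4.82 CPM at 22 months and 3.0 CPM at 28 months, so the difference was measured against its highest age. Gstt1, the theta gene with the highest level in TPM, was at -0.44 against 8 months (SE 0.17, adjusted p = 0.0269). The 2 alpha class genes did not pass, with Gsta4, which conjugates 4-hydroxynonenal, at -0.34 (SE 0.15, adjusted p = 0.0464). The microsomal transferase Mgst3, the highest of the remaining transferases in TPM, was at -0.29 (SE 0.10, adjusted p = 0.0181).

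Among the 5 glutathione peroxidases 1 was higher, 1 lower and 3 did not pass. Gpx3, the secreted peroxidase also found in plasma, had a lowest, median and highest value of 161, 208 and 280 CPM at 8 months and of 185, 413 and 698 CPM at 28 months. The groups overlapped through mouse 3 of 28 months, the lowest, and the other 8 mice of that age lay above all 8-month mice. It differed by a log2 fold change of 0.87 at 28 months (SE 0.17, adjusted p = 5.18e-05) and 0.72 at 26 months (SE 0.17, adjusted p = 0.00143). Gpx8, a peroxidase of the endoplasmic reticulum membrane, fell from a median of 7.25 CPM (4.13 to 8.02) to 3.51 CPM (2.25 to 4.95). This log2 fold change of -0.93 (SE 0.13, adjusted p = 4.55e-07) was the lowest of any member. Gpx4 and Gpx1, the main peroxidases in membranes and cytosol, were at -0.20 (SE 0.13, adjusted p = 0.176) and -0.16 (SE 0.11, adjusted p = 0.236).

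**Figure D3:**
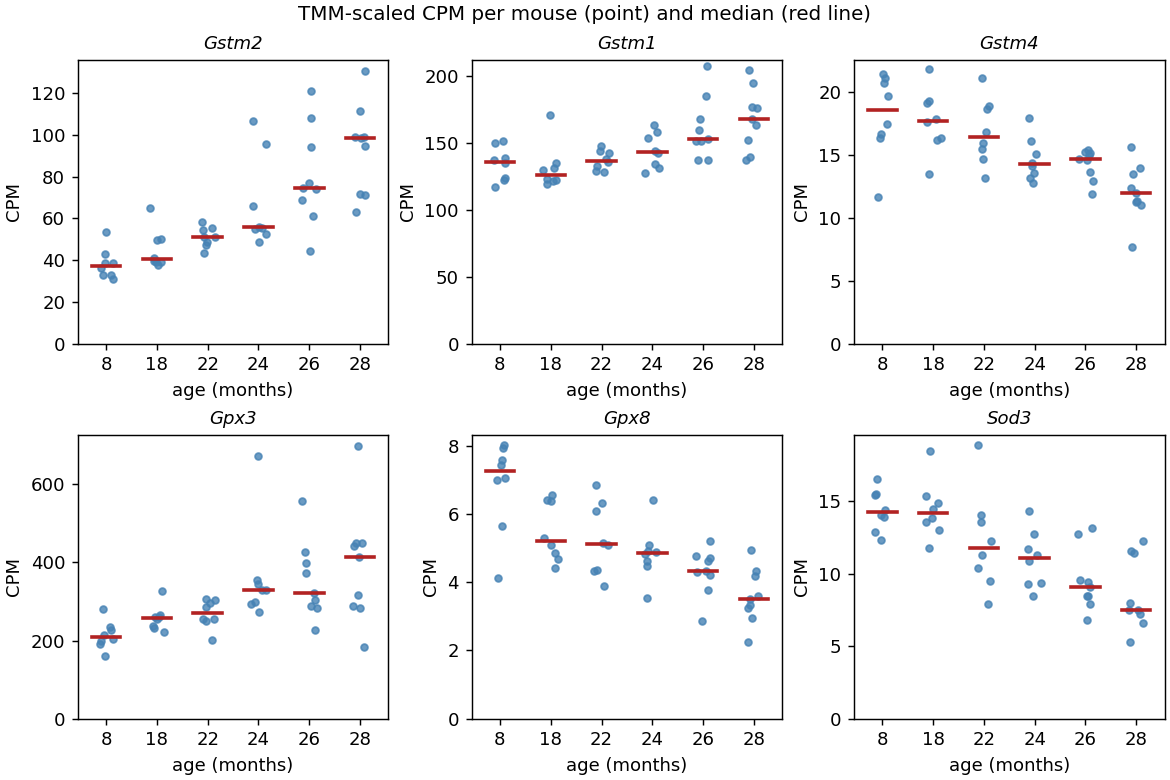
TMM-scaled CPM of 6 members in each mouse (points) by age, with the median as a red line. Gstm2 at 28 months lies above and Sod3 below the whole 8-month range, and Gstm4, a neighbour of Gstm2 and Gstm1 on chromosome 3, goes down.

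The extracellular superoxide dismutase Sod3, bound to the matrix, had 12.4, 14.2 and 16.5 CPM as the lowest, median and highest value at 8 months. At 28 months it had 5.31, 7.52 and 12.2 CPM, and all 9 mice lay below the 8-month range. The log2 fold change was -0.74 (SE 0.14, adjusted p = 3.85e-05), after -0.60 at 26 months (adjusted p = 0.00147). Sod1 (-0.20, SE 0.09, adjusted p = 0.0631), the mitochondrial Sod2 (-0.25, SE 0.09, adjusted p = 0.0139) and catalase (0.00, SE 0.15, adjusted p = 0.995) did not pass.

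Fibroblast markers moved in the direction of Gpx8 and Sod3. Of 7 such markers 5 were lower at 28 months and none was higher, and their summed level went from a median of 990 TPM (776 to 1085) to 735 TPM (617 to 844). Adipocyte markers (5 of 8 lower) went from a median of 715 to 466 TPM. Their part in these results was not tested, and in bulk tissue fewer cells of a type and less RNA per cell cannot be told apart.

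Of 7 peroxiredoxin and sulfiredoxin genes, 2 mitochondrial peroxiredoxins were lower and Srxn1 was higher, with a median log2 fold change of -0.27. Prdx5 fell from a median of 145 CPM (105 to 187) to 103 CPM (83.0 to 131), a log2 fold change of -0.47 (SE 0.09, adjusted p = 6.71e-05). Prdx3 fell from 224 CPM (188 to 284) to 179 CPM (171 to 217), a log2 fold change of -0.27 (SE 0.06, adjusted p = 0.000353). For each of the pair 6 of 9 mice of 28 months lay below the 8-month range. Of all 6 members placed in mitochondria, 2 were lower (18.7% of all genes), none was higher (21%) and 4 did not pass. Their median log2 fold change was -0.24. Prdx1 was at -0.23 (SE 0.11, adjusted p = 0.0634), and without mouse 2 of 28 months, its highest, at -0.32 (adjusted p = 0.00644). Prdx2, abundant in red cells, was at -0.29 (SE 0.10, adjusted p = 0.0117). Erythroid markers went from a median of 2170 TPM (1044 to 3444) to 3336 TPM (630 to 6418) with 1 of 6 tested higher and 1 lower, and their part in the result was not tested.

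Among the members called higher, several belonged to peroxiredoxin repair, heme breakdown and thiol recycling, and these differed widely between mice of the same age. Srxn1, sulfiredoxin, which restores overoxidised peroxiredoxins, ran from 37.8 to 107 CPM at 8 months with a median of 48.6. At 28 months it ran from 36.1 to 684 CPM with a median of 76.5, and 2 of 9 mice lay above the 8-month range. The log2 fold change was 1.30 (SE 0.39, adjusted p = 0.00452). It was 0.36 (adjusted p = 0.284) without mouse 1 of 28 months, which holds the value of 684 CPM, and the call was also lost without mouse 1 or mouse 4 of 8 months (1.24 and 1.23, adjusted p = 0.0101 and 0.0105).

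Hmox1, the inducible heme oxygenase, had 5.67, 9.47 and 13.7 CPM as the lowest, median and highest value at 8 months and 7.48, 15.3 and 109 CPM at 28 months. In 6 of 9 mice of 28 months it lay above the 8-month range, and mouse 2 (109 CPM) and mouse 1 (49.0 CPM) stood far above the rest. The log2 fold change was 1.55 (SE 0.31, adjusted p = 6.15e-05), and 0.91 without mouse 2. Its constitutive relative Hmox2, higher in TPM at 8 months (49.5 ± 3.05 against 11.9 ± 2.76 TPM), was at -0.13 (SE 0.07, adjusted p = 0.143). Macrophage markers moved in the direction of Hmox1 at 28 months: 5 of 8 were higher and none lower. Their summed level went from a median of 221 TPM (175 to 301) to 384 TPM (271 to 751), with the 751 TPM in mouse 2 and 364 TPM in mouse 1. Single mice did not always follow. At 26 months mouse 3 was highest for both (24.3 CPM and 516 TPM). Mouse 8 of that age was second for Hmox1 (20.9 CPM) and had the lowest macrophage sum (246 TPM). The part of macrophage markers in the result was not tested.

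Txnrd1, the cytosolic thioredoxin reductase, had a median of 112 CPM at 8 months (96.4 to 128) and 129 CPM at 28 months (95.5 to 266). Again mouse 1 (266 CPM) and mouse 2 (221 CPM) were the highest of that age. Its log2 fold change was 0.45 (SE 0.14, adjusted p = 0.00668), and the call was lost without mouse 1, 4, 5 or 7 of 8 months (0.42 to 0.44) and without mouse 1 (0.30) or mouse 2 (0.36) of 28 months. The mitochondrial Txnrd2 (-0.02, SE 0.07, adjusted p = 0.858), Txnrd3 (0.00, SE 0.10, adjusted p = 0.984) and the mitochondrial thioredoxin Txn2 (-0.23, SE 0.08, adjusted p = 0.0179) did not pass.

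Of 4 genes of glutathione synthesis and recycling 2 were higher. Gclc, the catalytic subunit of glutamate-cysteine ligase and rate-limiting for glutathione synthesis, ran from 13.4 to 17.4 CPM at 8 months (median 16.3) and from 16.4 to 43.7 CPM at 28 months (median 25.5). In 8 of 9 mice of 28 months it lay above the 8-month range, the log2 fold change was 0.69 (SE 0.12, adjusted p = 1.50e-05), and it stayed at 0.48 (adjusted p = 0.000413) without mice 1 and 2 together. Its modifier subunit Gclm had a median of 32.9 CPM at 8 months (30.8 to 40.3) and 34.3 CPM at 28 months (24.6 to 105). It was at 0.40 (SE 0.16, adjusted p = 0.0349) against 8 months and was called against 22 months (0.58, SE 0.16, adjusted p = 0.00418). Against 8 months it was at 0.13 without mouse 2 of 28 months, which holds the value of 105 CPM, and at 0.04 (adjusted p = 0.790) without mice 1 and 2 together.

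Gsr, glutathione reductase, ran from 20.1 to 29.1 CPM at 8 months (median 21.6) and from 23.8 to 92.05 CPM at 28 months (median 30.2). Gsr differed by a log2 fold change of 0.66 (SE 0.16, adjusted p = 0.000614), and 0.35 without mouse 2, which holds the value of 92.05 CPM. Gss, glutathione synthetase, was at -0.05 (SE 0.08, adjusted p = 0.653). The quinone reductase Nqo1, often used as a readout of NRF2, was called in this fit at 26 months (0.33, SE 0.09, adjusted p = 0.00521), where its median was 43.6 CPM against 33.4 CPM at 8 months. At 28 months it was at 0.25 (SE 0.09, adjusted p = 0.0204), with a median of 40.0 CPM. It passed at that age by limma on log2(TPM + 1) (0.31, adjusted p = 0.00462) and on log2(TPM + 0.1) (0.32, adjusted p = 0.00504). Of 17 refits with a single mouse left out it passed in 2, those without mouse 6 of 8 months or mouse 9 of 28 months (0.29 in each). No other alternative called it at 28 months, and without mice 1 and 2 of that age it was at 0.29 (adjusted p = 0.0137).

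**Figure D4:**
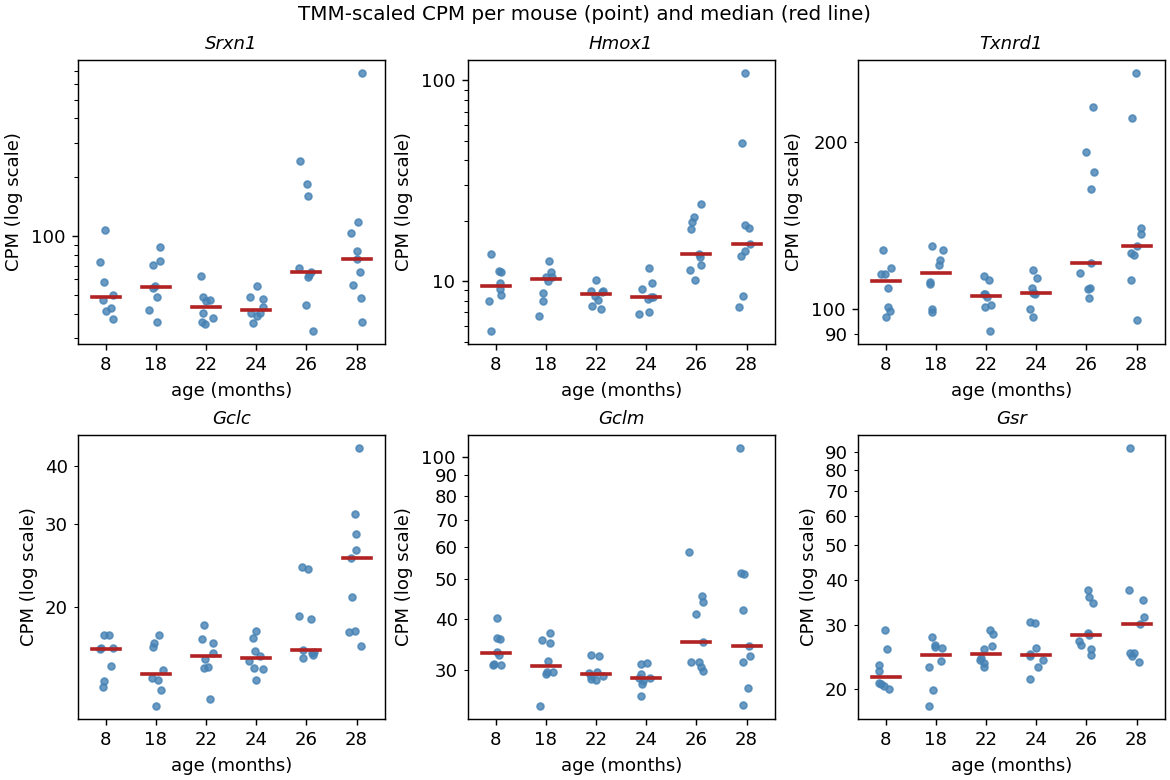
TMM-scaled CPM (log scale) of 6 members in each mouse (points) by age, with the median as a red line. Single mice of 26 and 28 months lie far above the median of their age: Srxn1 reaches 684 CPM and Hmox1 109 CPM at 28 months, where the medians are 76.5 and 15.3 CPM.

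Some mice recurred across several of these genes. At 28 months mouse 1 was highest for Srxn1, Txnrd1 and Gclc, and mouse 2 for Hmox1, Gsr, Gclm (105 CPM), Prdx1 (351 CPM) and catalase (230 CPM). At 26 months mice 3, 6 and 8 had the 3 highest values of Srxn1 (160, 185 and 241 CPM), of catalase (157, 172 and 230 CPM) and of Gclm (44.1, 45.5 and 58.4 CPM). The remaining 26-month mice had at most 68.4 CPM of Srxn1. For other genes the order of the 26-month mice differed. Mouse 1 was highest for Gclc (24.3 CPM) and Gsr (37.5 CPM), mouse 6 for Txnrd1 (231 CPM) and mouse 3 for Hmox1 (24.3 CPM), with mouse 8 next in each. Mouse 2 of 28 months held the highest value of that age for 12 of 45 members, and for 25.6% of all genes. Mouse 1 did so for 5 members and 11.3% of all genes. At the younger ages mouse 2 of 18 months was the highest of its age for 28 of 45 members (25.5% of all genes) and mouse 3 of 8 months for 22 of 45 (25.2%). Without that 8-month mouse, which belongs to the reference of the comparisons with 8 months, 15 members were called at 28 months, 9 higher and 6 lower.

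Mice 1 and 2 of 28 months also stood apart in the summed level of 8 denervation-response genes (Chrna1, Chrnd, Chrng, Gadd45a, Myh8, Myog, Ncam1 and Runx1). Their sums were 619 and 620 TPM, where the other 7 mice of 28 months had 234 to 449 TPM and 8-month mice 125 to 198 TPM. At 28 months Gadd45a (96.8 ± 76.8 CPM, SD, n = 9) and Myog (9.55 ± 10.1 CPM) varied widely and Chrna1 less (42.2 ± 10.8 CPM). Which genes carry the sums of mice 1 and 2 was not tested. Of 7 such genes tested 6 were higher at 28 months and none lower. The neutrophil markers were 282 TPM in mouse 2 and 12.2 TPM in mouse 1 (2.06 to 8.01 TPM at 8 months). Single mice of other ages also had high sums, up to 326 TPM at 24 months and 238 TPM at 26 months. Of 8 such markers only S100a8 and S100a9 were tested, both higher. Camp, Elane, Ltf, Mpo and Ngp did not reach 1 TPM in 8 mice. Among mice of 28 months mouse 2 also had the lowest sums of fast IIB fibre markers (101055 TPM) and erythroid markers (630 TPM). It had the highest sum of adipocyte markers (768 TPM). Whether these markers have a part in the antioxidant genes' values was not tested. Mice 1 and 2 were also left out together, an alternative chosen after seeing the data. In that refit 14 members and 3632 of all 12586 genes were called at 28 against 8 months. Of the members called 5 were higher and 9 lower, and of the 3632 genes 52.18% were higher. Hmox1 (0.51, adjusted p = 0.0163), Gsr (0.29, adjusted p = 0.0172), Srxn1 (0.23, adjusted p = 0.535) and Txnrd1 (0.16, adjusted p = 0.248) no longer passed. Gstm2 (1.19), Gpx3 (0.67), Gpx8 (-0.82) and Sod3 (-0.64) still did.

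**Figure D5:**
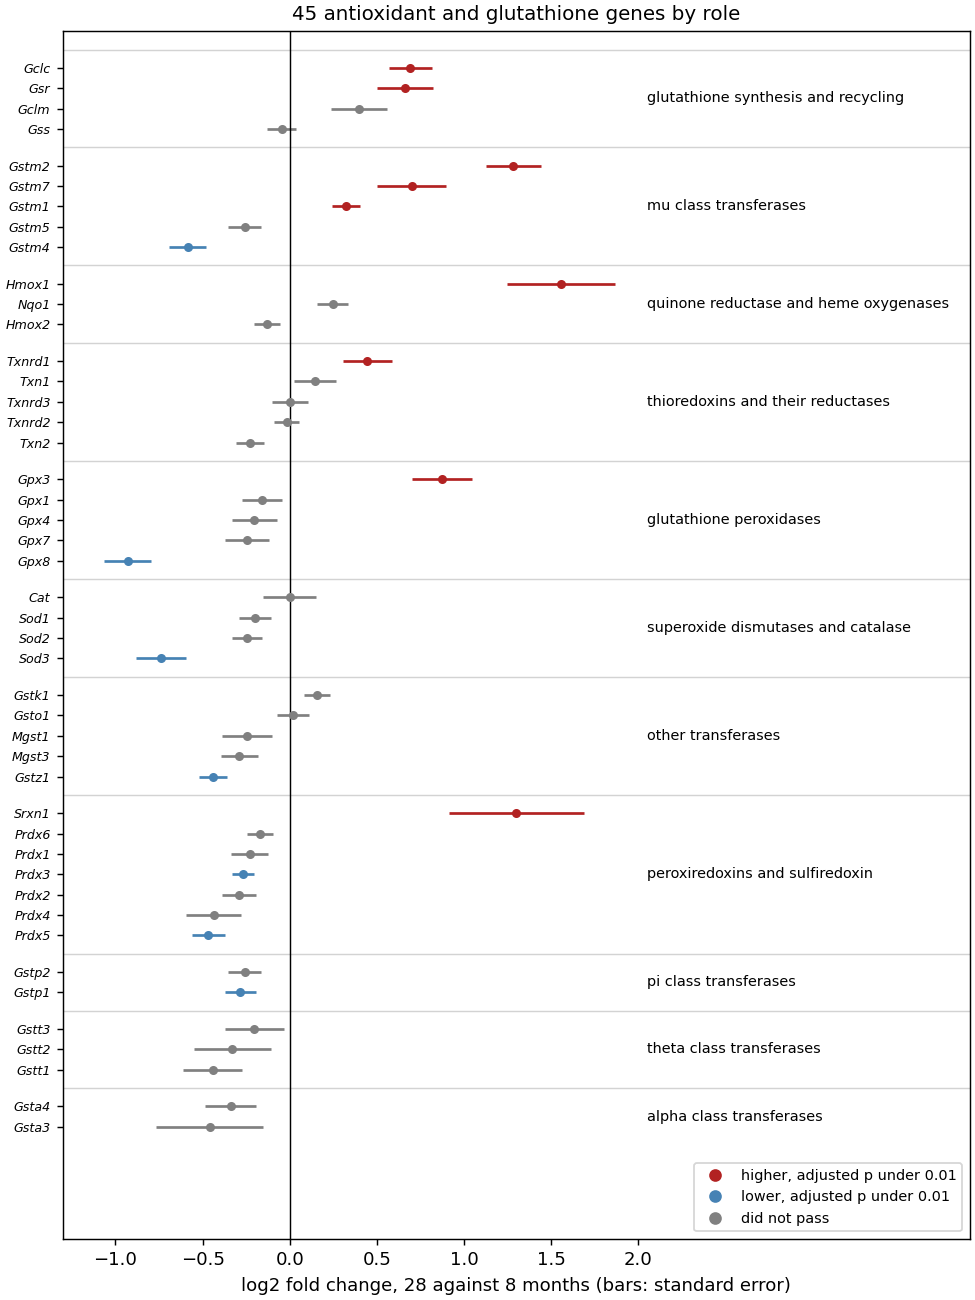
Log2 fold change at 28 against 8 months (point) with its standard error (bar) for the 45 tested members by role. Red marks members called higher (9) and blue those called lower (7); Hmox1 (1.55), Srxn1 (1.30) and Gstm2 (1.28) lie farthest to the right and Gpx8 (-0.93) farthest to the left.

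Antioxidant response elements were looked for as the letters TGACNNNGC on either strand, in RefSeq promoter windows (GRCm38.p6) of 300 bases, 250 before and 50 after each start. A window was at hand for 40 of 47 members, and not for Gclc, Gsr, Gsta4, Gstt2, Hmox1, Prdx6 and Sod3. The letters occurred in 16.4% of the 55 member windows and in 12.4% of all 32851 windows. By gene, 3 of 6 members called higher held them, 0 of 6 called lower and 6 of 26 that did not pass, beside 13.99% of all genes with such a window. The stricter TGACTCAGC, which is a special case of the same letters, stood in 0.454% of all windows and among members only in that of Prdx1. These counts are descriptions of letters and show no binding. Letters outside the windows were not looked for, so a gene without a match may hold them elsewhere. Shown here are the matches of the 3 members called higher and, for comparison, of Gclm and Prdx1, read along the gene's strand, with the match in capitals.
Srxn1, chr2:152105542-152105570, plus strand: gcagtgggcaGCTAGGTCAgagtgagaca
Txnrd1, chr10:82859104-82859132, plus strand: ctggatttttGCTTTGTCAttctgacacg
Gstm7, chr3:107931725-107931753, minus strand: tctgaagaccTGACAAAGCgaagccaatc
Gclm, chr3:122245413-122245441, plus strand: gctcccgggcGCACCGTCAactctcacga
Prdx1, chr4:116685456-116685484, plus strand: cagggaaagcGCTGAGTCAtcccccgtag
The Srxn1 match began at base 28 after the start and the Txnrd1 match 92 bases before it.

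The 6 selenoprotein members, Gpx1, Gpx3, Gpx4, Txnrd1, Txnrd2 and Txnrd3, carry selenocysteine, the residue at their catalytic centre, encoded by a UGA that would otherwise end the protein. Of them Gpx3 and Txnrd1 were called higher at 28 months, none lower, and the median log2 fold change was -0.01. The codon is shown in capitals within coding sequence from GENCODE vM21 (GRCm38), to set the peroxidases, where it lies inside the protein, beside the reductases, where it is the last codon but 1. Codon numbers are those of the longest annotated protein of each gene and differ in other forms. Which form the muscle expresses was not tested.
Gpx1, codon 47 of 201, chr9:108339451-108339453, plus strand: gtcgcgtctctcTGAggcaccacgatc
Gpx3, codon 73 of 226, chr11:54907256-54907258, plus strand: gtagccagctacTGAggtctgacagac
Gpx4, codon 129 of 253, chr10:80054737-80054739, plus strand: gtggcctcgcaaTGAggcaaaactgac
Txnrd1, codon 612 of 613, chr10:82896037-82896039, plus strand: ggagacatcctccagtctggctgcTGAggt
Txnrd2, codon 526 of 527, chr16:18477772-18477774, plus strand: ctggagcctactgtgactggttgcTGAggc
Txnrd3, codon 614 of 615, chr6:89674789-89674791, plus strand: ctggacattactcagaaaggctgcTGAggc
Of 19 other selenoproteins and selenium incorporation genes tested, 7 were lower (18.7% of all genes) and 2 higher (21%) at 28 months (median -0.11). Msrb1, which reduces methionine sulfoxide, was at -0.97 (SE 0.12, adjusted p = 2.82e-08), and Secisbp2, which recruits the selenocysteine machinery, at 0.47 (SE 0.12, adjusted p = 0.00152). The calls of this list fell from 9 to 4 without mouse 5 of 8 months and to 5 without mouse 2 of 28 months, where Secisbp2 was lost (0.31, adjusted p = 0.0112).

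Of 11 genes for NRF2 and its partners 7 were higher (21% of all genes) at 28 months and none was lower (18.7%). Their median log2 fold change was 0.53 beside 0.01 over all genes. Nfe2l2 itself had 58.6 ± 8.74 CPM at 8 months (SD, n = 8) and 140 ± 102 CPM at 28 months (SD, n = 9), a log2 fold change of 1.26 (SE 0.24, adjusted p = 4.24e-05). Mouse 1 of 28 months was the highest, with 370 CPM. The small MAF partner Mafk was at 1.27 (SE 0.20, adjusted p = 2.82e-06), and Bach1, the repressor that competes with NRF2 at the same elements, at 1.15 (SE 0.23, adjusted p = 7.08e-05). Keap1 was at 0.19 (SE 0.07, adjusted p = 0.0290). Without mice 1 and 2 this list held 4 calls, beside 3632 of the 12586 genes. In that refit Nfe2l2 was at 0.84 (adjusted p = 0.00140), Mafk at 0.87 (adjusted p = 0.000119) and Bach1 at 0.70 (adjusted p = 0.00266).

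Among the NADPH supply genes, 6 of 18 identifiers tested were higher and 3 lower (Nnt has a pair of identifiers, both higher), with a median of 0.16. These 9 calls stood beside 39.6% of all genes. They fell to 4 when only the mice of 8 and 28 months were fitted (3443 of the 12586 genes called). Without mice 1 and 2 of 28 months they also fell to 4 (3632 genes called). H6pd, which makes NADPH in the endoplasmic reticulum, was at 0.78 (SE 0.17, adjusted p = 0.000228) and at 0.42 without mouse 2 of 28 months, and it did not pass in the fit of only both ages (adjusted p = 0.0186). The cytosolic malic enzyme Me1 fell from 469 ± 47.4 CPM (SD, n = 8) to 315 ± 42.3 CPM (SD, n = 9), a log2 fold change of -0.57 (SE 0.10, adjusted p = 5.94e-06). Of 8 NADPH oxidase genes, which make superoxide, 4 were higher (21% of all genes) and none lower (18.7%), with a median of 0.76. The phagocyte subunit Cybb led them (1.43, SE 0.28, adjusted p = 5.68e-05). Mouse 2 of 28 months was the highest for Cybb (34.3 CPM, next 11.7), and without it Cybb was at 0.98. Among mice of 28 months the same mouse had the highest sums of macrophage markers (751 TPM, 5 of 8 higher) and neutrophil markers (282 TPM, 2 of 2 tested higher). Neutrophil sums reached 326 TPM at 24 months. The part of these markers in the Cybb result was not tested.

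Of 18 genes of glutathione uptake, breakdown and cysteine supply 3 were higher and 5 lower at 28 months (median -0.07), beside 39.6% of all genes called in either direction. When only the mice of both ages were fitted, 4 passed beside 3443 of the 12586 genes, and Chac2 did not pass (adjusted p = 0.0105). The glutathione conjugate exporter Abcc1 was at 0.56 (SE 0.10, adjusted p = 2.14e-05) and Chac2, which degrades glutathione, at -0.60 (SE 0.13, adjusted p = 0.000208). Of 22 glutaredoxins and thioredoxin relatives 8 were lower (18.7% of all genes) and 3 higher (21%), with a median of -0.17. The disulfide isomerase Txndc5 was at -0.48 (SE 0.07, adjusted p = 7.04e-07) and P4hb, another, at 0.45 (SE 0.09, adjusted p = 6.97e-05). Txnip, which binds and inhibits thioredoxin, was at 0.73 (SE 0.20, adjusted p = 0.00166), and at 0.54 (adjusted p = 0.0118) without mouse 2 of 28 months, where the call was lost. Of 13 genes of iron, heme and methionine sulfoxide 4 were lower (18.7% of all genes) and none higher (21%), with a median of -0.27. Methionine sulfoxide reductase Msra was at -0.56 (SE 0.08, adjusted p = 3.04e-07).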

How the data were processed

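Gastrocnemius polyA RNA-seq libraries of 50 mice, 1 per mouse, were analysed by age as labelled. The authors trimmed reads (cutadapt 1.9.1 per the labels) and quantified them with kallisto 0.43.1 against protein-coding GRCm38 transcripts, splitting multi-mapping reads evenly, and deposited counts per gene and TPM. Levels between genes were compared in TPM. The deposited counts of genes that reached 1 CPM in 8 or more mice were compared with edgeR 4.0.16 (TMM, quasi-likelihood) at FDR 0.01; the SE is the log2 fold change over the square root of F. Scripts were tested on simulated data. Alternatives were DESeq2 1.42.0, upper-quartile factors, no filter, only the compared ages, the likelihood ratio test, limma 3.58.1 on log2(TPM + 1) or log2(TPM + 0.1), a replicate block and each mouse left out. The members and lists were chosen with earlier results of these data known. Named were members called in any test, the highest in TPM of each role, selenoproteins, the smallest p in each direction of each related list, and Nfe2l2, Keap1, Bach1 and Txnip; Cat, Sod2, Gss, Prdx2, Gstp2 and the 26-month mice were chosen after their values were seen. p-values set the differences between ages against the spread between these mice. Shared 31-base words were counted in GENCODE vM21, not the authors' Ensembl release. Markers of other cells not given in the report were also summed: at 28 against 8 months, slow fibre markers had 0 of 8 called, endothelial 1 of 6 lower, Schwann cell 1 of 7 lower, fast IIB fibre 2 higher and 1 lower of 7, and lymphocyte 0 of 1, as 6 lymphocyte markers were under 1 TPM.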

Additional observations from a re-analysis of the deposited data

Results flagged for a closer look

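In 210 groups of 8 or 9 mice, 1 gene at 1 age each, the highest or lowest mouse was far from the others (by Dixon's test at the 95% level) 19 times, and chance alone gives about 5% of groups. Of these, 18 were a highest value. Mouse 2 of 18 months was the highest of its age for 28 of 45 members, and for 7 genes it stood apart by this test, with Gpx3 at 327 CPM, Gstm1 at 170 CPM, Gstm2 at 64.8 CPM, Gstp1 at 231 CPM, Hmox2 at 49.9 CPM, Nqo1 at 46.5 CPM and Txnrd3 at 10.6 CPM. The next mouse of that age had 265, 135, 50.2, 171, 36.3, 36.0 and 7.95 CPM. Its macrophage markers summed to 177 TPM and its denervation-response genes to 93.8 TPM.

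Mouse 2 of 28 months stood apart for Gclm (105 CPM, next 51.7), Gsr (92.05 CPM, next 37.5), Hmox1 (109 CPM, next 49.0), Prdx1 (351 CPM, next 254), Cybb (34.3 CPM, next 11.7) and H6pd (425 CPM, next 143). Mouse 1 of 28 months stood apart for Srxn1 (684 CPM, next 118), Bach1 (323 CPM, next 130) and Nfe2l2 (370 CPM, next 192).

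Gpx3 was 671 CPM in mouse 8 of 24 months, where the next mouse had 356 CPM. Hmox2 was 45.7 CPM in mouse 3 of 8 months (next 38.5 CPM), and Prdx3 was 171 CPM in mouse 1 of 26 months, the lowest (next 191 CPM). None of these mice was left out of the comparisons of the report except where a value is given without it.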

How the results depend on the processing

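Between 28 and 8 months 16 members were called, and 13 to 22 with single mice left out (9 higher, 7 to 10; 7 lower, 6 to 13, the 13 without mouse 8 of 8 months). The count was 10, with 5 higher, when only the mice of both ages were fitted, a fit with fewer samples. That fit called 3443 of the 12586 genes, 52.89% of them higher, where the main fit called 4988. The upper-quartile factors gave 8 higher and 13 lower, beside 5009 genes, 44.9% of them higher, and the cause was not tested. With mice 1 and 2 of 28 months left out 5 were higher, beside 3632 genes called, 52.18% of them higher. Single-mouse ranges were 4 to 10 for 8 calls at 26 months (4 without mouse 1 of 26 months, 5 without mouse 8 of 26 months or mouse 5 or 7 of 8 months), 0 to 2 for the call at 24 months, 8 to 19 for 14 calls against 22 months, and 16 to 19 for 17 calls among all ages. At 24 months 2 members were called by DESeq2, upper-quartile factors, the likelihood ratio test and the fit of only both ages. Against 22 months 5 were called with only those ages fitted and 4 without mice 1 and 2. The share of all genes is not given here for the single-mouse ranges, the 24-month alternatives or these refits against 22 months. Among single members at 28 against 8 months, the fit of only both ages lost Hmox1 (adjusted p = 0.0105), Prdx3 (0.0131), Gstp1 (0.0176), Gsr (0.0247), Txnrd1 (0.0362) and Srxn1 (0.0416). Limma on log2(TPM + 1) lost Txnrd1 (0.0106), Gstp1 (0.0146) and Srxn1 (0.0571) and gained Nqo1 and Gstk1, upper-quartile factors lost Txnrd1 (0.0121), and the fit with no filter lost Gstp1 (0.0119). Calls among the other selenoproteins and selenium genes went from 9 to 5 with no filter and to 4 with only both ages or without mice 1 and 2. No called member changed sign in any setting. The replicate numbers were not taken as pairs. Correlations of same-numbered mice ran from -0.554 to 0.38 with a median of 0.051, beside a median of -0.0059 for other numbers. Of 121 same-numbered pairs 47 were above 0.1. With the numbers as a block 16 members were called at 28 months (8 higher, 8 lower), with Srxn1 lost (adjusted p = 0.0113) and Sod2 gained (0.00705). Depth had a median of 18409468 counts at 8 months and 15922011 at 28 months, and limits mainly the lowest members, such as Gstm7.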
